A study of Homo sapiens with 16 samples.

Results

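MALAT1, NEAT1, NORAD, KCNQ1OT1, MEG3 and H19 are long noncoding RNAs, transcripts that act as RNA and are not translated into a known protein. The 6 genes were found by their symbols, and each symbol occurred once among the 60669 genes of both deposited tables. They were measured in HMC3 cells, a human line labelled as microglial, either wild type (WT) or labelled as a knockout (KO) of METTL3, the catalytic subunit of the enzyme behind the RNA mark N6-methyladenosine (m6A). The study made 16 libraries of 2 types from 100 ng of RNA each: a poly(A) type by Smart-seq2, with 5 WT and 5 KO libraries, and an rRNA-depleted type with a directional kit, with 3 WT and 3 KO libraries. How the knockout was made, whether it is 1 clone or several, and whether libraries came from separate cultures are not given in the sources used here, so p-values measure only the spread between these libraries, which may be technical.

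These RNAs are known for different roles. MALAT1 is kept in nuclear speckles, where splicing factors gather, and NEAT1 is the scaffold around which paraspeckles form. NORAD is a mostly cytoplasmic RNA that binds Pumilio proteins such as PUM2, repressors of their target mRNAs. KCNQ1OT1, MEG3 and H19 come from imprinted loci, where 1 parental copy is active: KCNQ1OT1 is transcribed from the paternal copy and silences neighbours in cis, and MEG3 and H19 come from the maternal copy. MALAT1 and the long form of NEAT1 have no ordinary poly(A) tail: RNase P cuts their 3′ ends ahead of a tRNA-like RNA, and a triple helix of U-rich and A-rich tracts protects the cut end. The short form of NEAT1 is polyadenylated. MALAT1 is also a well known carrier of m6A.

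The 3′ ends of MALAT1 and NEAT1 are shown because the library types differ in how they capture RNA without a poly(A) tail. Both are on the plus strand of chromosome 11 (GRCh38, transcripts of GENCODE 29), at chr11:65506019-65506116 for MALAT1 and at chr11:65445442-65445540 for NEAT1, and capitals mark the U-rich tracts and the closing A-rich tract, with T for U.
MALAT1 3′ end: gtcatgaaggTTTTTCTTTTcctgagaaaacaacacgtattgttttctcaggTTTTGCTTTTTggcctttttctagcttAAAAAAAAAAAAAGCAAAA
NEAT1 3′ end: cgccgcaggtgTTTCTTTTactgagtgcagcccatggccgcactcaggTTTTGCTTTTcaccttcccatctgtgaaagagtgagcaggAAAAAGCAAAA
The runs TTTCTTTT, TTTTGCTTTT and AAAAAGCAAAA are those these ends share, so they were taken from the RNAs themselves. Searched on the RNA's own strand, they occurred in this order within 150 bases in 2 of 5770 long noncoding transcripts of at least 1000 bases (0.0347%), and those 2 are MALAT1 and NEAT1. The annotation places the tRNA-like RNA of each gene (RF01684) directly after these ends, and it was listed at 0 in all 6 rRNA-depleted libraries.

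NORAD is shown by its Pumilio sites. Its single annotated transcript of 5339 bases held 15 matches to TGTANATA, the letters Pumilio proteins are known to bind, searched on the RNA's own strand: 10 of TGTATATA, 4 of TGTAAATA and 1 of TGTACATA. Of the 485 long noncoding transcripts of 4000 to 7000 bases, 35.9% held at least 1 match, the median was 0 matches, and 3 transcripts, NORAD among them, held 15 or more. Of 5249 protein-coding transcripts of the same lengths, 42.9% held a match and 0 held 15. In 3 places 2 matches stand a base apart, and these pairs are printed below with both matches in capitals, from the minus strand at chr20:36049493-36049529, chr20:36048296-36048332 and chr20:36047660-36047696.
NORAD pair at 1442: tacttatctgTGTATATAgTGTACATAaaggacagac
NORAD pair at 2639: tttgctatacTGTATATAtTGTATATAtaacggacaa
NORAD pair at 3275: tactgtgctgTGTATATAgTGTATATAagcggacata
Positions count from 1 at the 5′ end of the transcript. By the same search the longest transcripts of NEAT1, KCNQ1OT1 and MEG3 held 6, 9 and 1 matches, and those of MALAT1 and H19 held 0.

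METTL3 is known to methylate the A of GGACT, so this core was counted on the RNA's own strand in the longest transcript of each gene. MALAT1 held 13 in 8708 bases, or 1.49 per kb, more than 76.9% of long noncoding transcripts of at least 1000 bases, whose median was 0.875 per kb and of which 83.9% held at least 1. In MALAT1, 5 of the 13 lay between positions 2412 and 2718. The cores at 2513 and 2575, within that stretch, are printed with the core in capitals, from chr11:65500256-65500296 and chr11:65500318-65500358.
MALAT1 core at 2513: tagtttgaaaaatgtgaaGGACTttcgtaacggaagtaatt
MALAT1 core at 2575: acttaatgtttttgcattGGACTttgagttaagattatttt
NORAD held the fewest per kb, 2 cores or 0.375 per kb, above 20.4% of long noncoding transcripts. MEG3 had 16 cores (1.23 per kb), KCNQ1OT1 79 (0.862 per kb), H19 2 (0.852 per kb) and NEAT1 19 (0.835 per kb). A match describes the letters only, since methylation was not measured here.

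**Figure D1:**
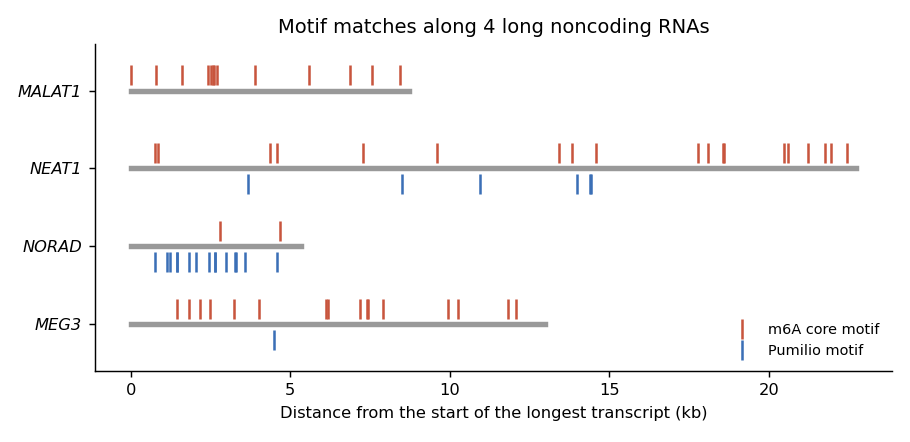
Positions of GGACT (red ticks, above the line) and TGTANATA (blue ticks, below the line) along the longest transcript of 4 long noncoding RNAs, in kb from the transcript start. MALAT1 has a cluster of 5 GGACT matches between positions 2412 and 2718, and NORAD carries 15 TGTANATA matches.

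The rRNA-depleted libraries were shallow: whole reads recovered from the deposited TPM (how much of a library's RNA a gene makes up, with gene length divided out) summed to 266157 to 487272 per WT library and 512627 to 1267171 per KO library. KO libraries 1 and 2 did not differ beyond sampling noise (chi-square 1.02 per degree of freedom over 10122 genes, p = 0.0657), while the other pairs of either label gave 1.16 to 1.54. They were averaged and counted as 1 sample, which left 3 WT and 2 KO samples. METTL3 mRNA itself stood at 31.2, 31.6 and 25.4 TPM in the WT libraries and 39.2, 39.96 and 42.7 TPM in the KO libraries, so it was not lower under the knockout label, and KO below means the libraries labelled knockout. Of 16 microglial markers, 11 were at 0 in every library, among them AIF1, CX3CR1, P2RY12, TMEM119 and PTPRC, and only 1 reached 1 TPM in all 6. The 16 together summed to 52.5 to 70.5 TPM in WT and 68.8 to 92.35 TPM in KO libraries. Of 12 fibroblast and pericyte markers, 7 reached 1 TPM in every library and LUM was at 0, and their summed level was 11640 to 14010 TPM in WT and 4239 to 4280 TPM in KO libraries. The part of these differences in the results below was not tested.

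MALAT1 and MEG3 were higher in KO than in WT rRNA-depleted libraries, NORAD, NEAT1 and KCNQ1OT1 did not pass the test there, and H19 was barely detected. Of the 5 tested members, 2 passed a limma adjusted p of 0.05, both higher, where 35.3% of all 14789 tested genes passed, 22.9% higher and 12.4% lower. For long noncoding RNA genes 10.8% of 1690 passed as higher and 15.1% as lower. The WT and KO samples did not overlap for any of the 5 tested members, as was also so for 62.7% of all tested genes. In bulk RNA, fewer cells carrying an RNA and less RNA per cell cannot be told apart.

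MALAT1 (ENSG00000251562) lies on chromosome 11 from 65497688 to 65506516, plus strand. It stood at 816, 898 and 760 TPM in WT libraries 1 to 3 and at 2857, 2831 and 2327 TPM in KO libraries 1 to 3. Every KO library was far above every WT library, and the lowest KO value came from KO library 3. Mean levels were 825 ± 69.7 TPM in WT (SD, n = 3) and 2586 ± 365 TPM in KO (SD, n = 2), a ratio of 3.13. On the log2(TPM + 1) scale used for all tests below, the difference was 1.64 (SE 0.14, 95% interval 1.30 to 1.99) with a limma adjusted p of 0.00199. MALAT1 had 760 to 1111 reads per WT library and 3155 to 9049 per KO library, so counting error was small beside the spread between samples: its coefficient of variation in WT was 8.45%, against 3.27% from counting alone. MALAT1 moved from rank 104 to rank 21 among all genes by mean TPM. It was rank 1 in both groups among 192 long noncoding RNA genes with at least 50 reads in all.

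NEAT1 (ENSG00000245532) lies 5′ of MALAT1 on the same strand of chromosome 11, from 65422774 to 65445540. It stood at 49.5, 52.7 and 47.1 TPM in the WT libraries and at 75.2, 76.03 and 54.2 TPM in the KO libraries. KO libraries 1 and 2 were well above the WT range, while KO library 3 was just above its top. NEAT1 averaged 49.8 ± 2.84 TPM in WT (SD, n = 3) and 64.9 ± 15.2 TPM in KO (SD, n = 2), and the difference of 0.36 on the log2 scale (SE 0.19, 95% interval -0.12 to 0.84) had a limma adjusted p of 0.197. Without KO library 3 the log2 difference was 0.60, with a limma adjusted p of 0.0836 that takes the spread from WT alone. The ratio of the neighbouring nuclear RNAs within each library did not overlap between the groups. Over samples this was so for all 10 pairs of members, and 62.7% of all tested genes, taken singly, did not overlap either. MALAT1 was 16.5, 17.04 and 16.1 times NEAT1 in the WT libraries and 37.97, 37.2 and 43 times NEAT1 in the KO libraries.

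NORAD (ENSG00000260032) lies on chromosome 20 from 36045622 to 36050960, minus strand, in 1 exon. It stood at 340, 316 and 375 TPM in the WT libraries and at 289, 274 and 262 TPM in the KO libraries. All KO values were below all WT values, by a narrow gap. NORAD averaged 343 ± 29.5 TPM in WT (SD, n = 3) and 272 ± 13.6 TPM in KO (SD, n = 2), a ratio of 0.792. The log2 difference of -0.33 (SE 0.11, 95% interval -0.62 to -0.05) had a limma adjusted p of 0.0735, which does not pass. The call changed with the processing, and not with the scaling alone. All tested genes had a median log2 difference of 0.41 with TPM as deposited, and NORAD lay 0.74 below that median. Long noncoding RNA genes had a median of -0.17, nearer to NORAD. With median ratio scaling NORAD was at -0.69 (limma adjusted p 0.00784), and with the trend on GC content removed at -0.80 (limma adjusted p 0.00583). With quantile normalization, where the median of all genes was 0.07, NORAD was at -0.29 and did not pass (limma adjusted p 0.107). With TPM as deposited but 6 libraries as separate samples, NORAD was at -0.32 and passed (limma adjusted p 0.0319).

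MEG3 (ENSG00000214548) lies on chromosome 14 from 100779410 to 100861031, plus strand, with 48 annotated transcripts. It stood at 63.3, 73.5 and 64.2 TPM in the WT libraries and at 156, 147 and 145 TPM in the KO libraries. The groups were far apart and each was tight. MEG3 averaged 67 ± 5.65 TPM in WT (SD, n = 3) and 148 ± 4.78 TPM in KO (SD, n = 2), a ratio of 2.21, and the log2 difference was 1.14 (SE 0.13, 95% interval 0.82 to 1.46) with a limma adjusted p of 0.00349. MEG3 moved from rank 46 to rank 6 among the 192 ranked long noncoding RNA genes. The annotated long noncoding gene AL117190.1 overlaps the 3′ part of MEG3 on the same strand, and it stood at 9.58, 9.34 and 8.10 TPM in the WT libraries and 49.9, 72.9 and 55.3 TPM in the KO libraries. It was also higher, by 2.57 on the log2 scale with a limma adjusted p of 0.00222, but rested on only 2 or 3 reads in each WT library. How reads were divided between these overlapping genes is not given in the sources used here. DLK1, the paternally expressed protein-coding neighbour of MEG3, was at 0 in all 6 libraries.

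KCNQ1OT1 (ENSG00000269821) lies on chromosome 11 from 2608328 to 2699994, minus strand, within the potassium channel gene KCNQ1 on the opposite strand. It stood at 2.09, 3.05 and 2.55 TPM in the WT libraries and at 4.53, 5.11 and 4.65 TPM in the KO libraries. The KO values lay together above all WT values, but both groups were low, with 27 to 39 reads per WT library and 66 to 171 per KO library. Its means were 2.56 ± 0.481 TPM in WT (SD, n = 3) and 4.74 ± 0.122 TPM in KO (SD, n = 2), and the log2 difference of 0.70 (SE 0.41, 95% interval -0.34 to 1.74) had a limma adjusted p of 0.243. In WT its coefficient of variation of 18.8% was close to the 18.2% that counting alone gives. A voom fit on recovered reads, which weights each value by its expected precision, gave a difference of 0.68 with an adjusted p of 0.00479 in limma. Its scaling differed too, with a median of all genes of 0.03 against 0.41. KCNQ1 itself had at most 2 reads in any library. Whether the counting used strand is not given in the sources used here, so reads of KCNQ1 introns and of KCNQ1OT1 cannot be told apart.

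H19 (ENSG00000130600), on chromosome 11 from 1995176 to 2001470, minus strand, is an RNA of the fetal growth locus it shares with IGF2. It had 2 reads in WT library 1, 2 reads in KO library 1 and 0 in the other 4 libraries, which is 5.01 and 2.37 TPM in the former pair. The groups overlapped, and every library was below the limit of 3 reads that a count of 0 allows, which for H19 equals 6.36 to 11 TPM in WT and 2.91 to 6.86 TPM in KO libraries. A difference in H19 was therefore not detectable at this depth, and H19 did not enter the test. Limits from reads cover counting error only. IGF2, its growth factor neighbour, was detected at 49.8 to 66 TPM in WT and 61.2 to 76.8 TPM in KO libraries, with a log2 difference of 0.25 and a limma adjusted p of 0.333.

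**Figure D2:**
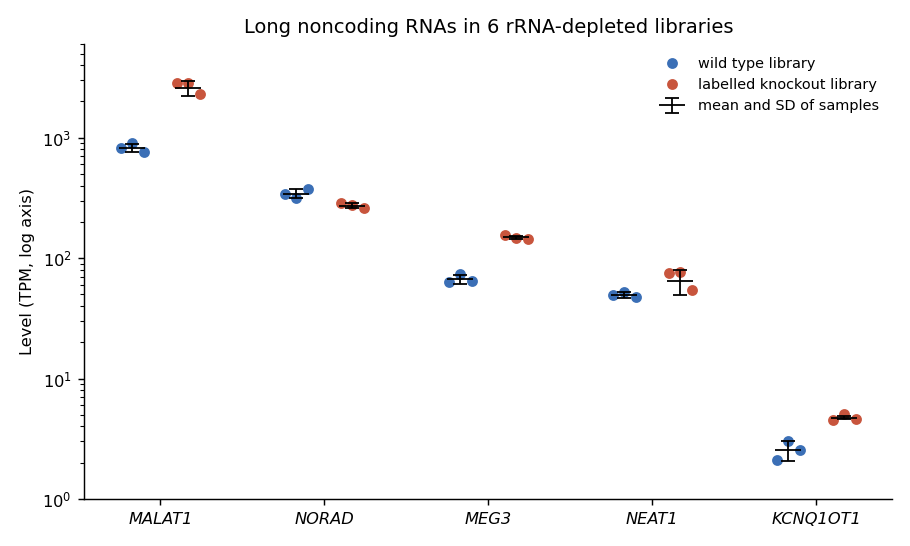
Level of 5 long noncoding RNAs in each rRNA-depleted library, in TPM on a log axis, for 3 WT libraries (blue) and 3 KO libraries (red); the black bar is the mean and its ends the SD over 3 WT and 2 KO samples, with KO libraries 1 and 2 averaged. MALAT1 and MEG3 stand clearly apart by group, and NORAD has its KO values below its WT values.

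In order of level per length, both groups ran MALAT1, NORAD, MEG3, NEAT1 and KCNQ1OT1, and neighbours in this order did not overlap in any sample. H19 was within its limit of 3 reads, which spans the level of KCNQ1OT1 in KO and lies above it in WT, so the order of these RNAs was not established. In mean TPM, MALAT1 was 2.40 times NORAD in WT and 9.50 times in KO, and NORAD was 5.12 times MEG3 in WT and 1.83 times in KO. The 6 RNAs together took 0.129 ± 0.00491% of all TPM in WT (SD, n = 3) and 0.308 ± 0.04% in KO (SD, n = 2). MALAT1 made up 63.9 ± 2.995% of that sum in WT and 84 ± 0.961% in KO, while NORAD went from 26.7 ± 3.25% to 8.89 ± 0.715%. These are shares of 1 sum, so more MALAT1 by itself lowers the share of NORAD. The mean level of NORAD itself was 343 TPM in WT and 272 TPM in KO.

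Ratios of members within a library do not depend on how that library is scaled, and all 10 pairs of the 5 detected RNAs were compared. None of the 10 ratios overlapped between the 3 WT and 2 KO samples. The 10 pairs are built from 5 RNAs and are not independent, and the share for pairs of other genes was not computed. Taken singly, 62.7% of all tested genes did not overlap either. By single library, KCNQ1OT1 over MEG3 did overlap, at 0.0329, 0.0415 and 0.0397 in the WT and 0.0291, 0.0347 and 0.0321 in the KO libraries. Each ratio had a two-sided exact permutation p of 0.2 (0.2 after adjustment over the pairs), the smallest that 3 against 2 samples allow, so none could pass the threshold. MALAT1 over NORAD differed most: 2.40, 2.84 and 2.03 in the WT libraries and 9.87, 10.3 and 8.87 in the KO libraries, a difference of 1.98 in mean log2 ratio. NORAD over MEG3 was 5.36, 4.30 and 5.84 in the WT libraries and 1.86, 1.86 and 1.81 in the KO libraries, a difference of -1.48. For the 2 RNAs that passed the test, MALAT1 over MEG3 was 12.9, 12.2 and 11.8 in the WT libraries and 18.3, 19.2 and 16.05 in the KO libraries. The smallest difference of the 10 was that of KCNQ1OT1 over MEG3, at -0.25.

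The poly(A) libraries were compared through the authors' deposited table, which holds 1 comparison and no value for a single library. Its numerator is not stated. Positive values were read as higher in KO, since the name of the table gives the knockout and since, read this way, 91.53% of the 177 genes past the threshold in each type with an absolute log2 value of 1 or more share their sign. With WT as the numerator all poly(A) directions below would be reversed, so a shared sign between the library types is not separate evidence. Of the 5 members with an adjusted p in the authors' deposited table, 2 were under 0.05, MEG3 higher and NORAD lower, where 19.9% of 14009 genes were, 9.55% higher and 10.3% lower. Long noncoding RNA genes of the authors' deposited table, 1242 in all, had 2.98% under 0.05 as higher and 2.66% as lower.

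MEG3 rose in the authors' deposited table by 0.88 on the log2 scale (SE 0.14, 95% interval 0.62 to 1.15) with an adjusted p of 4.35e-09. NORAD fell in the authors' deposited table, its log2 fold change being -0.40 (SE 0.11, 95% interval -0.61 to -0.18) with an adjusted p of 0.0033. MALAT1 had a log2 fold change of 0.03 in the authors' deposited table (SE 0.15, 95% interval -0.25 to 0.32) with an adjusted p of 0.916. So the MALAT1 difference of 1.64 in rRNA-depleted RNA lay outside the poly(A) interval. The 2 intervals for MALAT1 did not overlap, although the difference between library types itself was not tested. How many of all genes have intervals that do not overlap was not computed. Such gaps were not particular to MALAT1. PUM2 was at 2.73 by limma and 0.14 in the authors' deposited table, and XRN2 at 3.06 and 0.08. HMGA2, at 1.50 and 1.13, differed less between the library types. With the poly(A) sign turned the intervals of MALAT1 would still not overlap, but those of MEG3 and NORAD would then not overlap either. For NEAT1 the authors' deposited table gave -0.07 (SE 0.17) with an adjusted p of 0.848, and for KCNQ1OT1 0.57 (SE 0.33) with an adjusted p of 0.245. The authors' deposited table listed H19 at a mean normalized count of 0.0639, with no adjusted p.

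**Figure D3:**
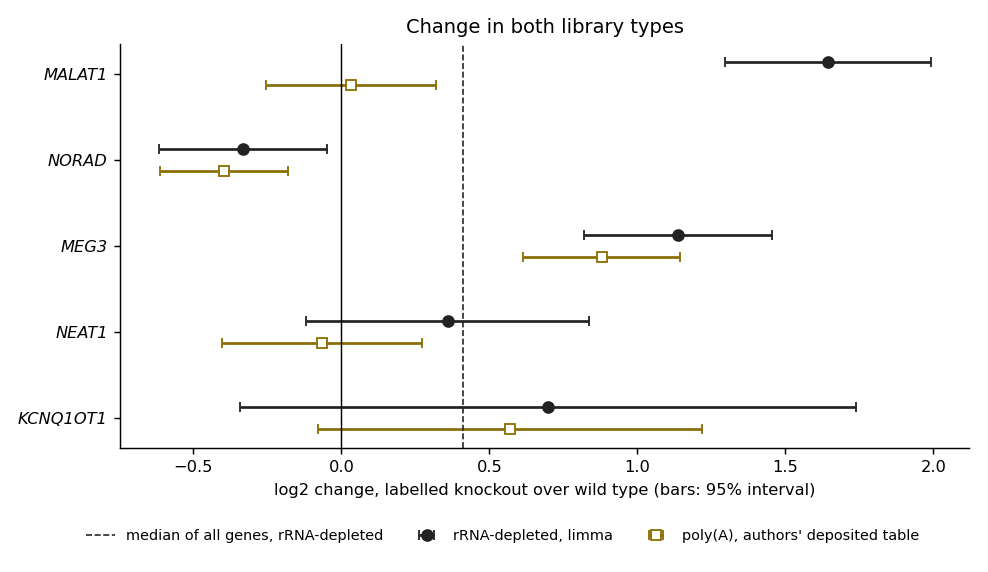
log2 difference between KO and WT with its 95% interval for 5 long noncoding RNAs: filled circles are the limma fit on rRNA-depleted TPM, open squares the authors' deposited poly(A) table, and the dashed line the median of all genes in rRNA-depleted libraries (0.41). With the direction read as higher in KO, the 2 intervals of MALAT1 do not overlap and those of the other 4 RNAs do. With the poly(A) sign turned, those of MEG3 and NORAD would not overlap either. The share of all genes whose intervals do not overlap was not computed.

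The relative levels of the members also differed between the library types. Per kb of gene length, the mean normalized count in the authors' deposited table, over WT and KO together, was 27.6 for NORAD, 21.2 for MALAT1, 18 for MEG3, 7.11 for NEAT1 and 0.188 for KCNQ1OT1. MALAT1 was thus 0.77 times NORAD per kb in the authors' deposited table, against 2.40 times in WT and 9.50 times in KO by rRNA-depleted TPM. MALAT1 over NEAT1 was 2.98 per kb in the authors' deposited table and 16.6 in WT and 39.8 in KO by rRNA-depleted TPM. MEG3 over NEAT1 moved less, at 2.53 per kb in the authors' deposited table and 1.35 in WT and 2.29 in KO by rRNA-depleted TPM. The lengths are those that made the recovered reads whole, and only MEG3 is much shorter there (15769 bases) than its exons in GENCODE 29 (23224 bases). NEAT1 was divided by 22767 bases, the length of its whole gene, although its short form is the polyadenylated one. A shorter length would raise NEAT1 per kb, so its place in the poly(A) order and both ratios to it depend on that length.

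Across all genes, the rRNA-depleted difference fell with the GC content of the longest transcript, with a Spearman correlation of -0.367 over 14669 genes, and genes are not independent of each other. The 5 tested members all lay below the median GC content of 48.5%: MALAT1 at 40.3%, NORAD at 41.6%, KCNQ1OT1 at 43.7%, NEAT1 at 44.1% and MEG3 at 48.1%. NORAD and MALAT1 have nearly the same GC content and their differences had opposite signs, but a pair of genes is no test of GC content. With the trend on GC content removed from each library, MALAT1 was at 1.11 and MEG3 at 1.05, both still past the limma threshold, while NEAT1 was at 0.01 and KCNQ1OT1 at 0.33. The density of GGACT per kb had a Spearman correlation with the rRNA-depleted difference of -0.135 across 12915 genes and -0.005 across 1059 long noncoding RNA genes. GGACT density itself rose with GC content (0.342 across the 12915 genes). In these same sets, GC content had a correlation with the rRNA-depleted difference of -0.398 across all genes and -0.152 across long noncoding RNA genes. With the log2 fold change of the authors' deposited table, GC content had correlations of -0.171 across 12881 genes and -0.194 across 885 long noncoding RNA genes. The density of GGACT had -0.069 and -0.060 in those 2 sets.

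**Figure D4:**
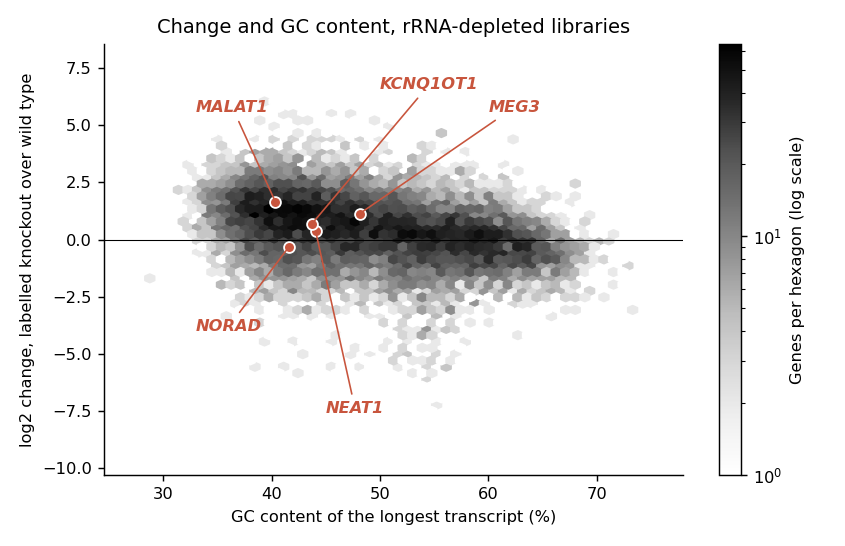
log2 difference between KO and WT in rRNA-depleted libraries against the GC content (%) of the longest transcript, for 14669 genes; grey hexagons show the number of genes on a log scale, and red points are 5 long noncoding RNAs. Differences fall with GC content (Spearman -0.367), and MALAT1 and NORAD lie apart at nearly the same GC content.

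The proteins that work with these RNAs were described by lists of genes, beginning with those that make the 3′ ends shown above. For protein-coding genes as a whole, 25.3% were higher and 11.1% lower in rRNA-depleted libraries by limma, with a median log2 difference of 0.48. In the authors' deposited table these shares were 10.7% and 11.6%. Median ratio scaling lowers the number of higher genes in most lists, so the counts under it follow each list. Of 14 tested genes for RNase P, RNase Z (ELAC2), CCA addition and triple helix binding, 3 were higher and 3 lower in rRNA-depleted libraries by limma, with a median log2 difference of 0.23 against 0.41 for all genes. With median ratio scaling 1 was higher and 5 were lower, and the median was -0.12. METTL16, a methyltransferase known to bind the MALAT1 triple helix, went from 54.3 ± 9.87 TPM in WT (SD, n = 3) to 24 ± 1.78 TPM in KO (SD, n = 2), a log2 difference of -1.13 with a limma adjusted p of 0.0127. The RNase P subunit RPP40 was higher (2.14, limma adjusted p 0.0307) and the subunit RPP25 lower (-1.29, limma adjusted p 0.0232). RPP40 did not pass with median ratio scaling (1.81, limma adjusted p 0.0545), nor RPP25 with the GC trend removed (-0.62, limma adjusted p 0.219). METTL16 had in the authors' deposited table a log2 fold change of 0.02 with an adjusted p of 0.944, and 1 of 15 genes of this list was higher and 3 were lower. RPP40 was among the lower there (-0.40, adjusted p 0.0239), opposite in sign to its rRNA-depleted difference, and RPP25 was at -0.28 (adjusted p 0.807).

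Nuclear speckle scaffolds and SR proteins, which share speckles with MALAT1, had 14 of 26 genes higher and 4 lower in rRNA-depleted libraries by limma, with a median of 0.64, or 0.22 above that of all genes (9 and 4 with median ratio scaling). With the GC trend removed 9 were higher and 4 lower, and the median of 0.29 minus that of all genes was -0.18. SRRM1, a speckle scaffold, was higher by 2.34 (limma adjusted p 0.00629). SRSF3, a splicing factor, was lower by limma (-0.90, adjusted p 0.00461). Of the 26, the authors' deposited table had 4 higher and 4 lower, SRRM1 again among the higher (0.35, adjusted p 0.00657) and SRSF3 among the lower (-0.38, adjusted p 1.19e-06).

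Paraspeckle proteins, which assemble on NEAT1, had 22 of 39 genes higher and 2 lower by limma, with a median of 0.74 (11 and 5 with median ratio scaling). RBMX was among the higher (2.43, limma adjusted p 0.00207), and TAF15, an RNA-binding protein, was lower (-0.81, limma adjusted p 0.00944). Of 41 paraspeckle genes, 5 were higher and 8 lower in the authors' deposited table, with a median of -0.04.

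Of 8 known NORAD partners, 7 were higher and 1 lower in rRNA-depleted libraries by limma, with a median of 0.97 (4 and 1 with median ratio scaling). PUM2 went from 14.8 ± 2.99 TPM in WT (SD, n = 3) to 103 ± 1.15 TPM in KO (SD, n = 2), a log2 difference of 2.73 with a limma adjusted p of 0.00182. ALYREF, an mRNA export factor, was the 1 that was lower (-0.58, limma adjusted p 0.0176), and with the GC trend removed it was at -0.08 (limma adjusted p 0.578). Of the 8 partners, 2 passed in the authors' deposited table, both lower, and PUM2 had a log2 fold change of 0.14 with an adjusted p of 0.458. Of 20 Pumilio target and genome stability genes, 11 were higher and 1 lower by limma, with a median of 1.08, or 0.67 above that of all genes (8 and 1 with median ratio scaling). With the GC trend removed 6 were higher and 1 lower, and the median of 0.57 was 0.10 above that of all genes. BUB1, a spindle checkpoint kinase, was among the higher (2.68, limma adjusted p 0.00629), and CDC6, a replication licensing factor, was the 1 that was lower (-0.68, limma adjusted p 0.0117). Of these 20 genes, 5 were higher and 3 lower in the authors' deposited table, with BUB1 at 0.29 (adjusted p 8.69e-05) and CDC6 at -0.26 (adjusted p 0.0125).

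Of 19 tested imprinted genes and neighbours of H19, KCNQ1OT1 and MEG3, 5 were higher and 2 lower in rRNA-depleted libraries by limma, with a median of 0.29. With median ratio scaling 3 were higher and 4 lower, and the median was -0.06. CDKN1C, a cell cycle inhibitor silenced in cis by KCNQ1OT1, went from 45.1 ± 9.84 TPM in WT (SD, n = 3) to 23.95 ± 2.09 TPM in KO (SD, n = 2), a difference of -0.87 with a limma adjusted p of 0.0402. With the GC trend removed CDKN1C was at -0.16 (limma adjusted p 0.669). In the authors' deposited table CDKN1C had the other sign, at 0.45, and did not pass (adjusted p 0.383). PHLDA2, from the same cluster, was higher in rRNA-depleted libraries (0.91, limma adjusted p 0.00807; 0.59 and 0.112 with voom) and stood at -0.98 in the authors' deposited table (adjusted p 4.43e-05). TSSC4, also near KCNQ1OT1, was lower in both, at -1.45 with limma (adjusted p 0.00422) and at -0.38 in the authors' deposited table (adjusted p 0.0392), and with the GC trend removed it was at -0.65 (limma adjusted p 0.0606). Of 22 genes of this list, 1 was higher and 7 were lower in the authors' deposited table, with a median of -0.27. IGF2 was among the lower in the authors' deposited table (-0.95, adjusted p 0.0476).

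Of 17 tested genes beside MALAT1, NEAT1 and NORAD, 1 was higher and 4 were lower in rRNA-depleted libraries by limma, with a median of -0.17 (1 and 5 with median ratio scaling). With the GC trend removed 3 were higher and 2 lower, with a median of 0.32. FRMD8, the nearest gene before NEAT1 on the same strand, was lower (-1.10, limma adjusted p 0.0101; -0.49 and 0.0983 with the GC trend removed), and in the authors' deposited table FRMD8 was at 0.03 with an adjusted p of 0.962. CNBD2, the nearest gene to NORAD on its 3′ side, was lower, at -1.54 (limma adjusted p 0.0455) from at most 5 reads in any library. The 1 higher gene was DLGAP4 (1.14, limma adjusted p 0.00784), which was lower in the authors' deposited table (-0.50, adjusted p 0.000936).

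Of 29 other long noncoding RNAs tested, 6 were higher and 4 lower in rRNA-depleted libraries by limma, with a median of 0.40 against -0.17 for all long noncoding RNA genes tested (5 and 6 with median ratio scaling). MIR100HG, the host of a microRNA cluster, went from 7.50 ± 2.17 TPM in WT (SD, n = 3) to 54.6 ± 16.8 TPM in KO (SD, n = 2), a difference of 2.70 with a limma adjusted p of 0.00522. TUG1, a nuclear and cytoplasmic RNA, was higher by 2.48 (limma adjusted p 0.00261), where MALAT1 was at 1.64. OIP5-AS1, the mammalian relative of the fish RNA Cyrano, was lower, at -1.74 (limma adjusted p 0.00499). TUG1 in the authors' deposited table was at 0.24 (adjusted p 0.367) and OIP5-AS1 at -0.03 (adjusted p 0.898), so neither passed there, as MALAT1 did not. SNHG14, the snoRNA host of the Prader-Willi locus, was among the 3 of 30 that were higher in the authors' deposited table (0.61, adjusted p 0.000375), and 4 of the 30 were lower.

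The genes whose log2(TPM + 1) followed each member most closely over the 6 libraries, by Pearson r among 6701 genes with a mean of at least 20 TPM, were LRPPRC and IARS1 for MALAT1 (0.9998 and 0.9996), DNAJC2 and ZNF428 for NEAT1 (0.991 and 0.989), RASSF7 and NUP155 for NORAD (0.997 and 0.992), PPP1R15B and TMEM43 for KCNQ1OT1 (both 0.997), and BLTP2 and ZFAS1 for MEG3 (both 0.999). The 6 libraries fall into 2 groups, so these values mostly describe that split. KO libraries 1 and 2, counted as 1 sample in the tests, entered these correlations as separate points.

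MALAT1 and MEG3 kept their direction and stayed past the threshold under all 19 alternative settings of the rRNA-depleted analysis, with log2 differences of 1.11 to 1.87 for MALAT1 and 0.79 to 1.21 for MEG3. NORAD was below 0 under all 19, from -0.80 to -0.27, and passed the threshold under 6 of them. NEAT1 was at 0.01 to 0.60 and passed under none of the 19.

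**Figure D5:**
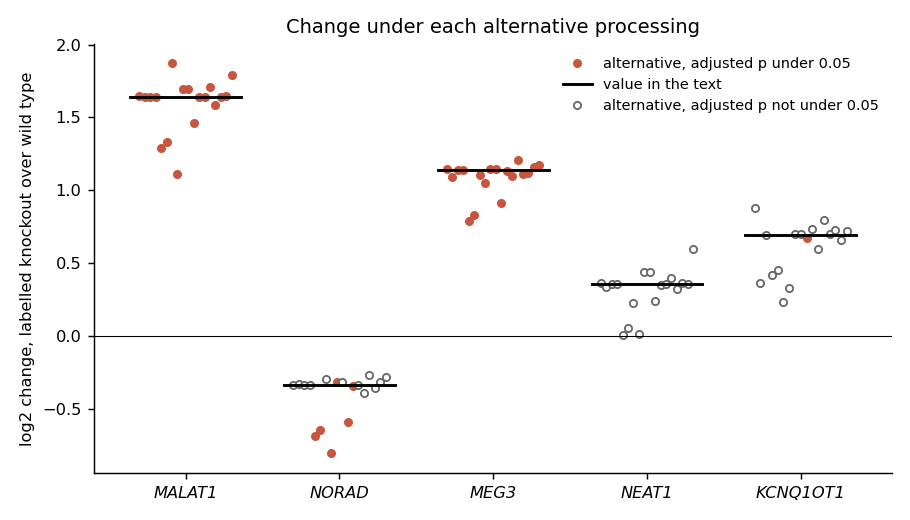
log2 difference between KO and WT for 5 long noncoding RNAs under each alternative setting of the rRNA-depleted analysis (points, filled where the limma adjusted p was under 0.05) and the value in the text (black line). MALAT1 and MEG3 are filled throughout, NORAD for 6 settings and KCNQ1OT1 for 1.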

How the data were processed

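Total RNA from HMC3 cells was sequenced after poly(A) selection with Smart-seq2 or after rRNA depletion with a directional kit, per the labels' protocols. Trimmomatic, STAR, DESeq2 and hg38 are named in the submitters' processing notes. The counting tool, annotation and use of strand are not given in the sources used here. The authors deposited TPM per gene and library for the rRNA-depleted type. Their deposited poly(A) table gives per gene, per the file headers, a pooled signal (the mean normalized count), the log2 fold change and its standard error. Its other columns, also deposited by the authors, are a Wald score and the p-value before and after adjustment. It has no value per library, so no SD or n was computed from it, and its 95% intervals are the fold change ± 1.96 standard errors.

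Samples were grouped by their titles, and every column was used. GENCODE 29 on GRCh38 gave gene positions, types and sequences, and 56927 of the 60669 identifiers were found in it. Reads were recovered from the steps of TPM times gene length, and 90.9% of values above 0 came out whole to within 0.02 reads. Libraries of a label were compared by a chi-square test over genes with at least 10 reads, and KO libraries 1 and 2 were averaged. The test was limma 3.58.1 in R 4.3.3 (lmFit, eBayes with trend) on log2(TPM + 1) with genotype as the term, for genes that reached 1 TPM in 3 or more libraries, with Benjamini-Hochberg adjustment over all genes at 0.05. This scale understates the change of low genes. Ratios between members needed at least 10 reads per library and were tested by exact permutation in scipy 1.17.1. Python 3.11.15, numpy 2.4.6, pandas 2.3.3 and matplotlib 3.10.9 served the other steps.

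Reads simulated at the observed depth of the KO against WT comparison served to test the limma fit, with a log2 change of 2 in some genes. Of 184 such genes among 13663 it found 48, and of 68 among the 3921 averaging 50 or more reads it found 41, with 0 false calls. The simulated spread between libraries (dispersion 0.005) was assumed and not estimated from these data. No GC trend or shift of most genes was simulated, so the 0 false calls do not carry over to the real comparison. Alternatives covered the pseudocount, the filter, the scaling, GC content, the averaging, the replicate block, voom, the threshold and each library left out.

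The members and the lists were chosen with earlier results of these data known. Genes named beside the members and METTL3 are up to 2 higher and 2 lower per list and library type, those with the largest change past 0.05 and a mean of at least 5 TPM or 50 normalized counts, drawn from here in part, plus genes that overlap or adjoin a member and the 2 most alike over the libraries. ELAC2, and AIF1, CX3CR1, P2RY12, TMEM119, PTPRC and LUM among the markers, were named outside that rule.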

Additional observations from a re-analysis of the deposited data

How the results depend on the processing

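Of 19 alternatives, none turned the direction of MALAT1, NEAT1, NORAD or MEG3, and none of 18 that of KCNQ1OT1, which a filter of 5 TPM removed. NORAD passed the threshold with median ratio scaling (-0.69), 75th percentile scaling (-0.64), the GC trend removed (-0.80), 6 libraries as separate samples (-0.32), voom (-0.59) and TPM without 7SK, mitochondrial and small RNA genes (-0.34), and KCNQ1OT1 with voom (0.68), which made 4 members called against 2. The number of genes called by limma went from 5220 to 2242 at an adjusted p of 0.01. Median ratio scaling moved the calls from 3382 higher and 1838 lower to 2362 and 2499, 75th percentile scaling to 2467 and 2393, quantile normalization to 2651 and 2442, and voom to 3869 and 3507. When a log2 fold change of 1 or more in size was also required, 0 of the 2 members called in the authors' deposited table were left, and 2 were left at an adjusted p of 0.01.

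Leaving out each library in turn gave 1663 to 5185 genes called, the lowest without KO library 3, where KO is a single averaged sample assumed to vary like WT. It gave 1.59 to 1.79 for MALAT1 (limma adjusted p at most 0.0218), 1.10 to 1.21 for MEG3 (at most 0.0371), 0.32 to 0.60 for NEAT1, -0.39 to -0.27 for NORAD and 0.60 to 0.79 for KCNQ1OT1, and 2 members were called each time. Replicate numbers did not pair the libraries: same-numbered WT and KO libraries had correlations of deviations from their group means of 0.020, -0.020 and 0.008. With the replicate block and 6 separate libraries 6037 genes and 2 members were called, with MALAT1 at 1.69 (limma adjusted p 0.00122), MEG3 at 1.15 (0.00346) and NORAD at -0.32 (0.0705). Depth limits H19, which no setting with a filter on low values could test, and KCNQ1OT1.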

Other observations

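Genes that write, read or remove m6A were described apart from the RNAs themselves, as 1 list. Of 19 tested genes, METTL3 included, 11 were higher and 1, METTL16, was lower in rRNA-depleted libraries by limma, with a median log2 difference of 1.23 against 0.41 for all genes (8 higher and 2 lower with median ratio scaling). CBLL1, a subunit of the methyltransferase complex, was at 4.24 ± 2.29 TPM in WT (SD, n = 3) and at 35.6 ± 1.35 TPM in KO (SD, n = 2), a log2 difference of 2.91 with a limma adjusted p of 0.0108, and CBLL1 was higher too in the authors' deposited table (0.37, adjusted p 0.00135). HNRNPA2B1, a nuclear RNA-binding protein, was higher in rRNA-depleted libraries (0.53, limma adjusted p 0.0202; -0.02 and 0.892 with the GC trend removed) and stood at -0.27 in the authors' deposited table (adjusted p 1.54e-05). Of 19 genes of this list, 3 were higher and 1 was lower in the authors' deposited table, with a median of 0.04.

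Of 19 tested genes for nuclear retention and decay of RNA, 7 were higher and 2 lower in rRNA-depleted libraries by limma, with a median of 0.65 (7 and 2 with median ratio scaling). XRN2, a nuclear 5′ to 3′ exonuclease, was higher by 3.06 (limma adjusted p 0.00606), while EXOSC3, a subunit of the RNA exosome, and PABPN1, the nuclear poly(A)-binding protein, were lower, at -2.18 (limma adjusted p 0.00125) and -1.93 (limma adjusted p 0.0013). None of these 3 passed in the authors' deposited table, where XRN2 was at 0.08, EXOSC3 at -0.20 and PABPN1 at -0.10. PABPC1, the cytoplasmic poly(A)-binding protein, was higher in both, by 2.02 with limma (adjusted p 0.00118) and by 0.34 in the authors' deposited table (adjusted p 1.32e-09).

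Of 10 tested genes linked to H19 through the microRNAs let-7 and miR-675, 4 passed by limma, all higher, with a median of 0.38 (3 higher and 1 lower with median ratio scaling), although H19 itself was at or below 2 reads. HMGA2, a chromatin protein known as a let-7 target, was higher in both library types, by 1.50 with limma (adjusted p 0.00424) and by 1.13 in the authors' deposited table (adjusted p 8.68e-16). TGFBI and HMGA1 were lower in the authors' deposited table, at -1.03 (adjusted p 4.8e-13) and -0.91 (adjusted p 2.51e-17), and in rRNA-depleted libraries they were at -0.27 and 0.29 and did not pass (limma adjusted p 0.549 and 0.0626). With the GC trend removed HMGA1 was at 0.90 and passed (limma adjusted p 0.00237).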
